A study of Mus musculus with 6 samples.

Results

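The 5 mouse genes for alpha-1 antitrypsin, Serpina1a, Serpina1b, Serpina1c, Serpina1d and Serpina1e, were described in whole kidneys of BALB/c mice and C57BL/6 (B6) mice. They were taken by gene symbol, and are 5 of the 23282 rows of the deposited tables. They were chosen by the difference in deposited level between BALB/c and B6 kidneys in these same 6 libraries, so their strain difference is given as a description and was not tested. RNA was sequenced in 3 libraries of BALB/c kidney and 3 libraries of B6 kidney. Each library is called a kidney below, although the labels do not tie it to a named animal. No treatment, age or sex is given in the labels. The libraries were made with Lexogen QuantSeq, which primes on the poly(A) tail and yields about 1 read per transcript near its 3′ end, so values were not divided by transcript length. The study concerned strain differences in kidney innate lymphoid cells, and the whole-kidney libraries compare the tissue in which those cells lie.

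Alpha-1 antitrypsin is a secreted serpin, a protease inhibitor that offers an exposed loop as bait, is cut by the protease and traps it in a covalent complex. Its best-known target is neutrophil elastase, and the liver makes nearly all of the plasma protein. Humans have a single gene for it, whereas mice carry a cluster of copies whose number differs between strains. The reference genome is of C57BL/6 origin, so reads of both strains were placed against B6 copies. The BALB/c sequences of the copies were not used here.

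In the BALB/c kidneys most reads of the family were counted in Serpina1b, and in the B6 kidneys most were counted in Serpina1d. Serpina1b made up 66.2% ± 2.60 of the family's reads in BALB/c and 5.46% ± 5.47 in B6, and Serpina1d made up 5.25% ± 0.651 in BALB/c and 73.9% ± 7.19 in B6 (SD, n = 3 each). The summed level of the 5 genes overlapped between the strains. The copies are so alike that many possible reads fit more than 1 of them, and how such reads were assigned is not stated in the notes or labels.

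The last exon of each gene, where the libraries read it, is 278 bases long, or 279 in Serpina1e, of which 189 are coding in every copy, by the GENCODE M21 transcripts on the build GRCm38 (mm10). In alpha-1 antitrypsin it encodes the reactive centre loop, the bait that the protease cuts. Over those 189 bases Serpina1b and Serpina1d had 10 mismatches, and any 2 members were between 91.53% and 96.3% identical.

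The 5 genes lie on chromosome 12 between bases 103728156 and 103958975 of GRCm38, a stretch of 230.8 kb, all on the minus strand. From low to high coordinates the order is Serpina1b (last exon chr12:103728156-103728433), Serpina1d (gene chr12:103763594-103773592), Serpina1a (chr12:103853589-103863562), Serpina1c (chr12:103894926-103904887) and Serpina1e (chr12:103946931-103958975). The annotation gives Serpina1b an end at base 103830373, because 1 long transcript model reaches across Serpina1d. Another 6 annotated pseudogenes lie among the 5 genes, and none of them has a row in the deposited tables. Exons of Serpina1c overlap the antisense gene B430119L08Rik, though not its last exon. Whether counting used the strand is not stated.

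The room for shared reads was measured on the reference. The last 300 bases of each transcript were cut into 51 words of 50 bases, and each word was looked up in all annotated transcripts on both strands. For Serpina1b, 20 words (39.2%) also occurred in another gene, and for Serpina1d 23 words (45.1%) did. Serpina1a had 29 such words (56.9%), and Serpina1c and Serpina1e had 9 each (17.6%). The remaining words of each gene, the majority in all but Serpina1a, are found in that gene alone among the annotated transcripts of the B6 reference.

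Serpina1b and Serpina1d shared 14 words (27.5%) with each other, the largest overlap between any 2 members at this word length. Serpina1a shared 11 words with the other members, whereas 23 of its words (45.1%) occurred in the pseudogene Gm8893 at chr12:103817856-103822243. Serpina1e shared none with Serpina1a or Serpina1b. Serpina1f, the neighbouring serpin gene outside the cluster, shared no word with any gene.

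**Figure D1:**
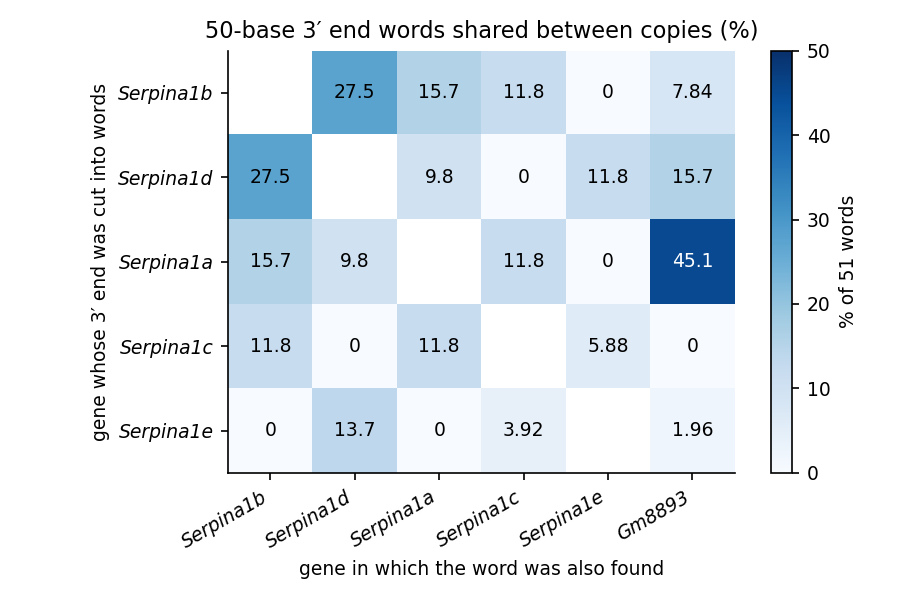
Share of the 51 words of 50 bases from the last 300 bases of each gene (down) that also occur in another gene (across), in percent, with darker blue for higher shares. The cell of Serpina1b against Serpina1d holds 27.5%, and the highest cell is Serpina1a against the pseudogene Gm8893 at 45.1%.

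Words that were not identical to another member's were compared by their mismatches. Each word was slid without gaps along the transcripts of the other members, and its fewest mismatches at any position were kept. Counting the identical words too, 80.4% of Serpina1b words, 62.7% of Serpina1d words and 80.4% of Serpina1a words lay within 2 mismatches of another member. For Serpina1c it was 78.4% of words and for Serpina1e 51%. Of the words that were not identical, 21 of 31 in Serpina1b, 9 of 28 in Serpina1d, 30 of 40 in Serpina1a, 31 of 42 in Serpina1c and 17 of 42 in Serpina1e lay within 2 mismatches. The median distance to the nearest member was 1 mismatch for the other four and 2 mismatches for Serpina1e. Sharing depended strongly on word length: with words of 75 bases it was 10.9% for Serpina1b and 8.70% for Serpina1d, and with words of 100 bases it was 0 for both. The read length is not stated in the notes or labels. Over the coding sequence the members were between 96.29% and 98.47% identical, with Serpina1a and Serpina1c closest at 19 mismatches in 1239 bases, and Serpina1b and Serpina1d at 43 mismatches.

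Serpina1b was at 21.98, 11.2 and 35.38 CPM in the 3 BALB/c kidneys, against 0.770, 2.32 and 4.37 CPM in the 3 B6 kidneys. CPM, the unit inferred for the deposited values, are reads scaled per library to totals that are close but not equal. These values stood for 227, 95 and 353 reads in BALB/c, and 7, 23 and 39 reads in B6. Every BALB/c kidney was above every B6 kidney, and the strains did not overlap. Serpina1b averaged 22.85 ± 12.11 CPM in BALB/c and 2.49 ± 1.81 CPM in B6, a ratio of means of 9.19. On the log2(CPM + 1) scale the difference was 2.78, with a standard error of 0.65 from the gene's own spread.

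Serpina1d went the other way. It was at 1.55, 1.06 and 2.60 CPM in the BALB/c kidneys, against 32.36, 65.63 and 24.55 CPM in the B6 kidneys. The reads behind these values were 16, 9 and 26 in BALB/c and 294, 651 and 219 in B6. All 3 BALB/c kidneys were low and all 3 B6 kidneys high, with no overlap. The means were 1.74 ± 0.789 CPM in BALB/c and 40.84 ± 21.81 CPM in B6, so that the B6 mean was 23.5 times the BALB/c mean. The log2 difference was -3.85, with a standard error of 0.47.

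Serpina1a did not separate the strains. It was at 4.16, 2.48 and 7.42 CPM in BALB/c, against 4.62, 8.57 and 3.81 CPM in B6, and the groups overlapped. Its means were 4.69 ± 2.51 CPM in BALB/c and 5.67 ± 2.54 CPM in B6, and the log2 difference of -0.26 was smaller than its standard error of 0.48. Serpina1a is the copy with the most words shared with other genes, 29 of 51.

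Serpina1c also overlapped, at 4.36, 2.12 and 7.02 CPM in BALB/c, against 3.96, 2.22 and 2.69 CPM in B6. The means were 4.498 ± 2.45 CPM in BALB/c and 2.96 ± 0.902 CPM in B6, with a log2 difference of 0.40 and a standard error of 0.44. The spread of Serpina1c was wider among the BALB/c kidneys, where the highest value was 3.3 times the lowest, than among the B6 kidneys, where it was 1.79 times.

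Serpina1e had the lowest mean of the family in both strains, although Serpina1b was lower in B6 replicate 1, and Serpina1b and Serpina1c were lower in B6 replicate 2. It was at 0.0966, 0.825 and 0.401 CPM in BALB/c, from 1, 7 and 4 reads, against 0.990, 3.33 and 1.79 CPM in B6, from 9, 33 and 16 reads. The strains did not overlap, with BALB/c lower, but the highest BALB/c kidney came close to the lowest B6 kidney. The exact 95% counting intervals of these neighbours, 0.332 to 1.70 CPM in BALB/c replicate 2 and 0.453 to 1.88 CPM in B6 replicate 1, covered each other almost fully. Serpina1e was the single member that fell short of the filter on low values, a deposited log2 value of at least 1 in at least 3 libraries. It reached that level in 2 libraries.

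The levels can be sorted by overlap alone. Serpina1b stood higher in BALB/c, Serpina1d and Serpina1e stood lower in BALB/c, and Serpina1a and Serpina1c overlapped. The strains did not overlap in 3 of the 5 members, whereas 25.4% of the 13317 genes that passed the filter had strains that did not overlap, 12.5% with BALB/c higher and 12.9% with BALB/c lower. Nothing is read from that count, since the members were chosen for this contrast.

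**Figure D2:**
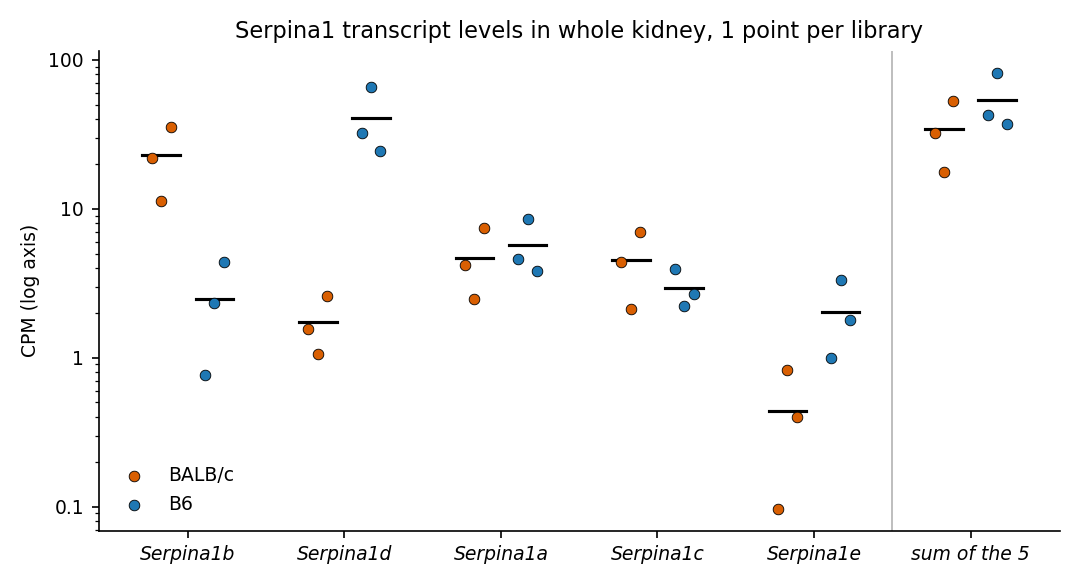
Level of each Serpina1 gene, and of their sum, in CPM on a log axis, with BALB/c (orange) left of B6 (blue), 1 point per kidney library in the order of the replicates and a bar at the mean of 3. Serpina1b averages 22.85 CPM in BALB/c and 2.49 CPM in B6, Serpina1d averages 1.74 CPM in BALB/c and 40.84 CPM in B6, and the points of the sum overlap.

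The order of the members within a strain was read from the same values. In BALB/c, Serpina1b was above every other member in each kidney, Serpina1a and Serpina1c were level with each other, and Serpina1d and then Serpina1e came last. Serpina1a had 43, 21 and 74 reads in the 3 BALB/c kidneys and Serpina1c had 45, 18 and 70, so these neighbours did not differ beyond counting error. In B6, Serpina1d was above every other member in each kidney. Serpina1a followed in B6 replicates 1 and 2, while in B6 replicate 3 Serpina1b had 39 reads and Serpina1a 34. Serpina1b, Serpina1c and Serpina1e changed places from one B6 kidney to the next.

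The family as a whole was summed, because a sum does not change when a read moves from one member to another. Reads placed in no gene or in a pseudogene are still lost from it. The sum was 32.14, 17.69 and 52.82 CPM in the BALB/c kidneys, against 42.7, 82.05 and 37.22 CPM in the B6 kidneys. The highest BALB/c kidney lay above 2 of the B6 kidneys. The means were 34.21 ± 17.65 CPM in BALB/c and 53.99 ± 24.46 CPM in B6, and the log2 difference of -0.69 was within 2 standard errors, each 0.56. Leaving out each kidney in turn gave log2 differences between -1.06 and -0.29. At 332, 150 and 527 reads in BALB/c and 388, 814 and 332 reads in B6, the sum rests on few reads per kidney.

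Shares of the family's reads set the leading members apart from the total. Serpina1b took 68.4%, 63.3% and 66.98% of them in the BALB/c kidneys, against 1.80%, 2.83% and 11.7% in the B6 kidneys. Serpina1d took 4.82%, 6.00% and 4.93% in BALB/c, against 75.8%, 79.98% and 65.96% in B6. The narrowest gap between strains was wide beside counting error: the exact 95% interval of the Serpina1b share ran from 55.1% to 71.0% in BALB/c replicate 2, and from 8.49% to 15.7% in B6 replicate 3. These intervals cover counting error only, and reads without molecular identifiers are not independent molecules.

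The shares of the other members moved less. Serpina1a held 12.95%, 14.0% and 14.0% in BALB/c, against 10.8%, 10.4% and 10.2% in B6. These shares did not overlap between strains, although the levels in CPM did. Serpina1c held 13.6%, 12% and 13.3% in BALB/c, against 9.28%, 2.70% and 7.23% in B6. Here too every BALB/c kidney was above every B6 kidney. Serpina1e held 0.301%, 4.67% and 0.759% in BALB/c, against 2.32%, 4.05% and 4.82% in B6, and its shares overlapped. Shares of a whole are tied to each other, so that a difference in one member alters the shares of the rest.

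**Figure D3:**
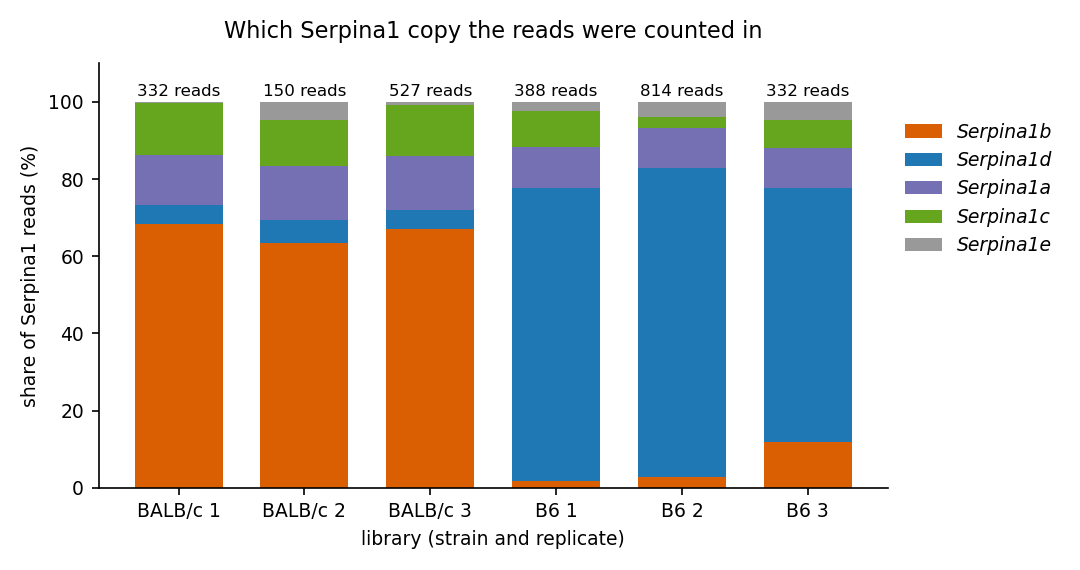
Share of each Serpina1 gene in the reads of the family, in percent, 1 stacked bar per kidney with the BALB/c libraries left of the B6 libraries and the number of reads above each bar. Serpina1b (orange) fills between 63.3% and 68.4% of the BALB/c bars, and Serpina1d (blue) fills between 65.96% and 79.98% of the B6 bars.

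Within BALB/c, the minor members kept a steady number of reads beside the leading one. For every 100 reads of Serpina1b, Serpina1c had 19.8, 18.9 and 19.8 reads, Serpina1a had 18.9, 22.1 and 21 reads, and Serpina1d had 7.05, 9.47 and 7.37 reads. The highest of these ratios was 1.05 times the lowest for Serpina1c, 1.17 times for Serpina1a and 1.34 times for Serpina1d. Counting error was wider than these ranges. In BALB/c replicate 2 the exact 95% interval ran from 10.8 to 31.6 reads per 100 for Serpina1c and from 4.20 to 18.8 for Serpina1d. The levels themselves ranged more widely over the same kidneys, 3.16 times for Serpina1b, 3.3 times for Serpina1c, 2.99 times for Serpina1a and 2.45 times for Serpina1d. Serpina1e did not keep such a ratio, at 0.441, 7.37 and 1.13 reads per 100.

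Within B6, Serpina1a had the narrowest range of ratios to Serpina1d. Serpina1a had 14.3, 13.1 and 15.5 reads per 100 reads of Serpina1d, and the highest was 1.19 times the lowest. Serpina1b had 2.38, 3.53 and 17.8 reads per 100, and B6 replicate 3 stood apart from the other 2 kidneys, with an exact 95% interval of 12.3 to 25.1. Serpina1c had 12.2, 3.38 and 11.0 reads per 100, and here B6 replicate 2 was the low one, at 2.10 to 5.16. Serpina1e had 3.06, 5.07 and 7.31 reads per 100, and its exact 95% intervals overlapped. The part of shared reads in these ratios was not tested. Without B6 replicate 3, the mean Serpina1b share in B6 was 2.32%.

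**Figure D4:**
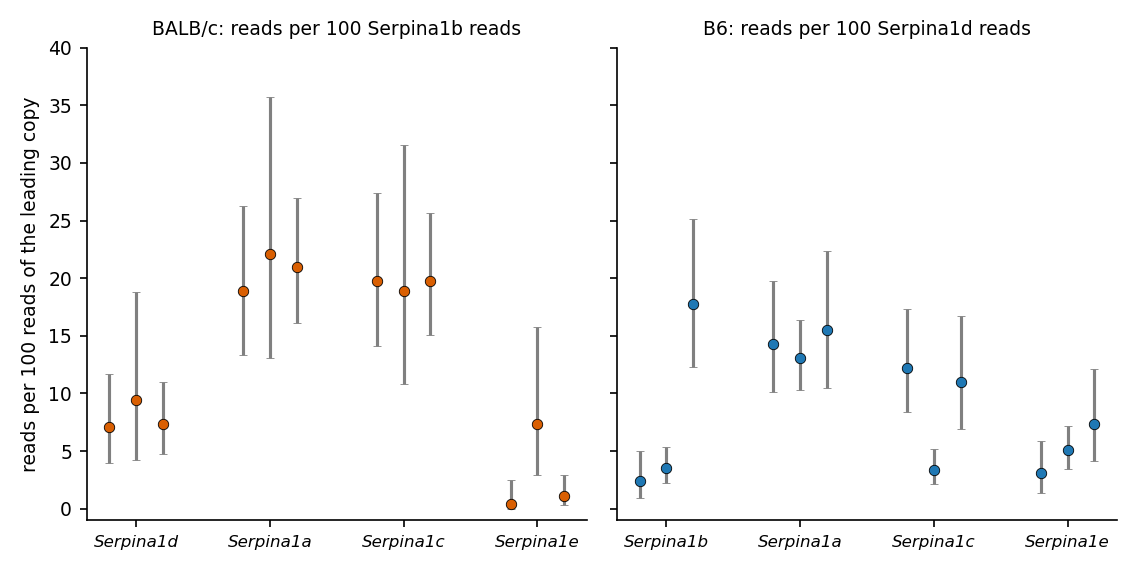
Reads of each other member per 100 reads of the leading member, Serpina1b in BALB/c (left panel) and Serpina1d in B6 (right panel), 1 point per kidney in the order of the replicates, with exact 95% counting intervals as bars. Serpina1a and Serpina1c lie between 18.9 and 22.1 in all 3 BALB/c kidneys, while Serpina1b in B6 runs between 2.38 and 17.8.

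The hepatocyte is the main source of alpha-1 antitrypsin, and its markers were looked at beside the members. Their summed level ran from 280.7 to 335.8 CPM in BALB/c and from 254.6 to 371.9 CPM in B6, and 1 of the 20, Tat, had no read in any library. Much of that sum came from Hpd and Ttr, which the kidney also expresses. In 7 of the 20, namely Alb, Apoa2, Fga, Fgb, Fgg, F2 and Trf, every BALB/c kidney was below every B6 kidney, and in none was every BALB/c kidney above. Among all genes that passed the filter, these shares were 12.9% and 12.5%. F2 did not pass it, with no read in BALB/c and 0.705 to 1.46 CPM in B6. Albumin (Alb) was at 5.42, 11.3 and 10.2 CPM in BALB/c, against 14.4, 13.1 and 15.1 CPM in B6. Hpd was at 165, 95.74 and 171.7 CPM in BALB/c, against 40.3, 108.8 and 34.31 CPM in B6, and overlapped. Their part in the members' levels was not tested.

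The summed level of 10 proximal tubule markers overlapped between the strains, at 18420 to 20260 CPM in BALB/c and 18340 to 23710 CPM in B6, with Kap alone making up 49.7% to 60.7% of it. Of the 10, Slc34a1, Slc22a8 and Miox were lower in every BALB/c kidney, beside 12.9% of all genes that passed the filter. The 8 markers of the last tubule segment, S3, summed to 2122 to 2395 CPM in BALB/c and 1980 to 2295 CPM in B6. Of these, Slc7a13, Slc22a19 and Serpina1f were lower in every BALB/c kidney, and Acy3 was higher. Among all genes that passed the filter, these shares were 12.9% and 12.5%. The part of tubule cells in the members' levels was not tested. Adipose markers summed to 2.12 to 6.00 CPM in BALB/c and 5.83 to 27.2 CPM in B6, with the highest value in B6 replicate 2, which also had the highest Serpina1d level. Of 12 markers of exocrine pancreas, 11 had no read. The remaining one, Cela1, was at 204.5 to 227.8 CPM in BALB/c and 221.6 to 289.2 CPM in B6. The part of adipose RNA in the result was not tested. In whole tissue, fewer cells of a type and less RNA per cell cannot be told apart.

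Promoters were read from the RefSeq table for GRCm38.p6, in windows of 300 bases around each annotated start, and all 5 members matched 1 entry each. The promoters of Serpina1b and Serpina1d are printed because most family reads were counted in these members, in BALB/c and in B6 respectively. Both sequences are those of the B6 reference, and the BALB/c promoters were not used. Capitals mark the letters searched for the liver factors HNF4 (CAAAGTCCA, either strand, up to 1 mismatch) and C/EBP (TTGCNNAA).
Serpina1b, chr12:103738140-103738439, minus strand: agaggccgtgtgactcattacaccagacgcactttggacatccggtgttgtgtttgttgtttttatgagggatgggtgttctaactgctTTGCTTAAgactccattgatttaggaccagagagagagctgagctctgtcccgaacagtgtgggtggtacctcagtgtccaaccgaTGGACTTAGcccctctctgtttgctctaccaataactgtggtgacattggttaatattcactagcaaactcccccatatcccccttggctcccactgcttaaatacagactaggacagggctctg
Serpina1d, chr12:103773584-103773883, minus strand: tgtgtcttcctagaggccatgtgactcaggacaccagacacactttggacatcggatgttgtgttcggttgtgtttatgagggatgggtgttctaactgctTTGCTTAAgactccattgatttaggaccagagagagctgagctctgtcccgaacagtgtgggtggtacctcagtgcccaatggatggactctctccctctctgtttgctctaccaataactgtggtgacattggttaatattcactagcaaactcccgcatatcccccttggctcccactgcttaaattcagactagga
Over 288 aligned bases these promoters had 17 mismatches, an identity of 94.1%. Between any 2 members identity ran from 91.7% to 98.39% over the bases that aligned.

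Motifs were searched on both strands of the 5 windows. The HNF4 letters CAAAGTCCA, with up to 1 mismatch, were found in Serpina1b and Serpina1a and not in the other 3 windows, and occur in 8.47% of all 32851 promoters in the table. The C/EBP letters TTGCNNAA were found in Serpina1b, Serpina1d, Serpina1a and Serpina1e, and occur in 10.8%. TGTTTAC, for FOXA factors, and TATAAA were found in none of the 5, against 3.65% and 13.6% of all promoters.

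The factors known to bind the alpha-1 antitrypsin promoter in liver were read in the kidney to unequal degree, and Foxa2 and Onecut1 had 1 read each over all 6 libraries. In a limma fit over the 13317 genes, 9.09% were called at a Benjamini-Hochberg adjusted p under 0.05, 4.17% as higher in BALB/c and 4.93% as lower. Of the 13 listed factors, 9 could be tested, 1 rose in BALB/c and none fell, and 3 had an unadjusted p under 0.05. The median log2 fold was 0.26 beside 0.0023 over all genes. Cebpd, a factor induced in inflammation, was at 80.8, 76.33 and 50.09 CPM in BALB/c, against 38.64, 30.04 and 40.36 CPM in B6. Every BALB/c kidney was higher, with a log2 fold of 0.89 ± 0.17 (SE) and an adjusted p of 0.00085 by limma. Without the trend in the variance prior the adjusted p was 0.0856. An exon of Cebpd overlaps the gene Spidr.

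Hnf4a, a leading liver regulator of such promoters, was not called. It averaged 295.1 ± 45.48 CPM in BALB/c and 325.2 ± 22.07 CPM in B6 (SD, n = 3 each, limma adjusted p = 0.456).

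Newly made alpha-1 antitrypsin folds in the endoplasmic reticulum with chaperones, leaves it with the cargo receptor LMAN1 and its partner MCFD2, and is degraded from there when misfolded. All 27 listed genes of these steps could be tested: 6 fell in BALB/c and none rose, beside 4.93% and 4.17% of all genes. Of the 27, 9 had an unadjusted p under 0.05, and 21 had a log2 fold below 0. The median log2 fold was -0.17, beside 0.0023 over all genes. Hspa5, the chaperone BiP, was at 734.7, 708.2 and 616.8 CPM in BALB/c, against 1226, 1170 and 1702 CPM in B6. It was lower in every BALB/c kidney, with a log2 fold of -0.98 ± 0.11 (SE) and a limma adjusted p of 2.34e-06.

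Mcfd2 was at 53.72, 62.29 and 53.49 CPM in BALB/c, against 97.22, 92.64 and 96.61 CPM in B6, with a log2 fold of -0.75 and a limma adjusted p of 0.00013. The 3 kidneys of each strain lay close together. Calr, which binds sugar chains on folding proteins, was at a log2 fold of -0.58 (adjusted p = 8.94e-05 by limma) and Hsp90b1, a chaperone of the HSP90 family, -0.50 (limma adjusted p = 0.0036). Without the trend their adjusted p was 0.0599 for Calr and 0.173 for Hsp90b1. Exons of Hsp90b1 overlap 3 other annotated genes. Pdia4 and Uggt1 also fell. Without the trend 2 of the 27 genes were called.

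The proteases listed as targets of alpha-1 antitrypsin were mostly at 0. Cela1, an elastase gene given above among the pancreas markers and read in every library, is not in this list. Of 11 listed, 8 had no read in any library, among them Elane, which encodes neutrophil elastase. The single one with enough reads, St14, a membrane serine protease of epithelia, averaged 30.37 ± 2.69 CPM in BALB/c and 26.37 ± 6.64 CPM in B6 (SD, n = 3 each). It was not called by limma, with an adjusted p of 0.543 and an unadjusted p of 0.238. The 11 neutrophil markers summed to 8.01 to 15.1 CPM in BALB/c and 1.54 to 3.59 CPM in B6, with Elane, Mpo, Ctsg and Ngp at 0. Of the 11, S100a8 and S100a9 were higher in every BALB/c kidney and none was lower. Among all genes that passed the filter, these shares were 12.5% and 12.9%. The part of neutrophils in the members' levels was not tested.

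Receptors that take up serpins or filtered proteins showed no call in limma, beside 9.09% of all genes. Of 11 listed genes 10 were tested, 3 had an unadjusted p under 0.05, and limma-voom gave the same count of 0. Lrp2, the megalin receptor of the proximal tubule, was at 1633, 1510 and 1657 CPM in BALB/c, against 1845, 1635 and 1754 CPM in B6. These groups overlapped, and the limma adjusted p was 0.468 with a log2 fold of -0.12. Without B6 replicate 3, limma called 2 of the 10.

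**Figure D5:**
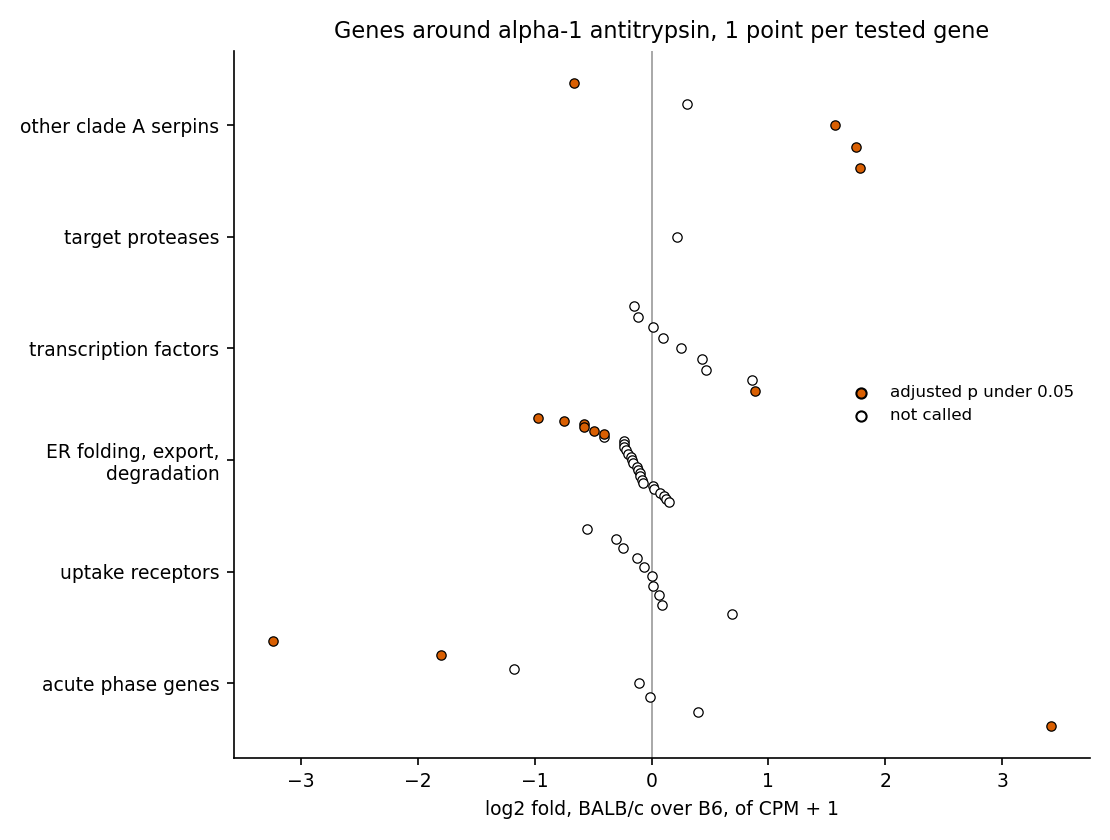
Difference of BALB/c minus B6 in log2(CPM + 1), a log2 fold, for the tested genes of 6 lists around alpha-1 antitrypsin, 1 point per gene, filled where the limma adjusted p is under 0.05. In the endoplasmic reticulum list 6 of 27 genes are called, all to the left of 0, with Hspa5 at -0.98.

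Other serpins of clade A, the family that alpha-1 antitrypsin founds, were listed too, some of them neighbours of the members on chromosome 12. Of 19 with a row, 5 could be tested, 3 rose in BALB/c and 1 fell, beside 4.17% and 4.93% of all 13317 genes. Serpina3b and Serpina6, among those that rose, passed the filter on low values through the BALB/c libraries alone. Their direction was therefore fixed by the filter, so their calls are given as a description and nothing is read from the count. The median log2 fold of the list, 1.57, is that of Serpina6. Serpina1f, the nearest protein-coding neighbour below Serpina1b at chr12:103688044-103695529, was at 94.27, 96.48 and 79.34 CPM in BALB/c, against 160.6, 132.2 and 135.9 CPM in B6. Every BALB/c kidney was lower, with a log2 fold of -0.66 ± 0.12 (SE) and a limma adjusted p of 0.00040. Without the trend its adjusted p was 0.0631. Serpina11, the nearest one above Serpina1e, had 6 reads in all BALB/c libraries together and 0 in B6, too few to test.

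Serpina10, which encodes an inhibitor of coagulation factors and lies at chr12:103614786-103631444, was at 10.46, 10.14 and 7.82 CPM in BALB/c, against 1.32, 2.82 and 2.35 CPM in B6. The groups were far apart, with a log2 fold of 1.75 ± 0.32 (SE) and a limma adjusted p of 0.00067. Serpina6, which encodes corticosteroid-binding globulin, lies at chr12:103646630-103657212 and averaged 3.35 ± 1.53 CPM in BALB/c and 0.401 ± 0.183 CPM in B6 (SD, n = 3 each). Its log2 fold was 1.57 with a limma adjusted p of 0.0141. By limma-voom its adjusted p was 0.0682, without BALB/c replicate 1 it was 0.0784, and without BALB/c replicate 3 it was 0.0884.

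Serpina3b, of the antichymotrypsin group, was at 2.13, 1.65 and 3.91 CPM in BALB/c and had no read in B6. Against a floor of 3 reads over the B6 libraries together it was at least 23.8-fold higher in BALB/c (limma adjusted p = 0.0068). Placing Serpina3b at that bound could not move the list's median log2 fold of 1.57, since its own fold already lay above the median. Without BALB/c replicate 3 the adjusted p was 0.0577 for Serpina3b, and 2 of the 5 serpins were called. Serpina3a, Serpina3c and Serpina3h, named after their values were seen, had 28, 16 and 58 reads in BALB/c and 0 in B6, and did not pass the filter. None of the 50-base words at the 3′ ends of Serpina1f, Serpina10, Serpina6 and Serpina3b occurred in another gene.

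Alpha-1 antitrypsin is an acute phase protein in humans, so other acute phase genes were listed. Of 20, 7 were tested and 4 had no read. Of those tested, 1 rose in BALB/c and 2 fell, beside 4.17% and 4.93% of all genes, with a median log2 fold of -0.10. C3, the central complement component, was at 100.1, 104.9 and 155.1 CPM in BALB/c, against 10.57, 12.7 and 7.62 CPM in B6. The log2 fold was 3.42 ± 0.19 (SE) with a limma adjusted p of 7.04e-12. The fibrinogen chain gene Fgb was at 0, 1.06 and 2.004 CPM in BALB/c, against 11.12, 17.44 and 22.43 CPM in B6, with a log2 fold of -3.24 and a limma adjusted p of 2.24e-06. Fgg, another fibrinogen chain, was lower by limma at an adjusted p of 0.0081, its log2 fold being -1.80. The Fgg call was lost without the filter (adjusted p = 0.0760), without the trend (0.130), without BALB/c replicate 1 (0.0616) and without B6 replicate 2 (0.0507). Fgb and Fgg also stand in the hepatocyte marker list. Exons of Fgg overlap the gene Gm30097.

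Genes with patterns most like each member were ranked by Pearson's r of log2 values over the 6 libraries, among the 8713 tested genes that averaged 10 CPM or more. These correlations describe 6 libraries that share a strain difference, and are given with no test. Serpina1b was most like Dmgdh, a mitochondrial enzyme of choline breakdown (r = 0.998), followed by Helb, a DNA helicase, and Fdx1l, a ferredoxin, at 0.984 each. The 3′ end words of Fdx1l all occur in other annotated transcripts as well. Serpina1d was most like Egf, the epidermal growth factor gene (r = 0.999), Ly6e, a membrane-anchored lymphocyte antigen (0.997), and Cyp2c44, a cytochrome P450 (0.993).

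Levels of 3 of these companions are given by strain. Dmgdh averaged 78.4 ± 4.05 CPM in BALB/c and 62.8 ± 3.85 CPM in B6, and Egf averaged 292 ± 9.72 CPM in BALB/c and 380 ± 20.5 CPM in B6 (SD, n = 3 each). Cyp2c44 averaged 9.53 ± 2.03 CPM in BALB/c and 69.0 ± 13.0 CPM in B6. Serpina1a was most like Kcnj15, a potassium channel (r = 0.997), Elovl5, a fatty acid elongase (0.983), and Dlst, of the citric acid cycle (0.982). Serpina1c was most like Peg13, an imprinted non-coding RNA (0.993), Echdc3 (0.991) and Arid1b, a subunit of a chromatin remodelling complex (0.980). Serpina1e did not pass the filter and was not ranked.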

How the data were processed

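RNA of whole kidney was extracted with Trizol and made into 3 BALB/c and 3 C57BL/6 Lexogen QuantSeq libraries, per the labels and their protocols. The submitters' processing notes name Bowtie2, bedtools and the build mm10. Tool versions, annotation, read length and the treatment of strand and of reads with several alignments are not stated there. The authors deposited 1 log2 value per gene symbol and library, in 23282 rows. The unit was inferred. Taken as powers of 2, less 1, the values sum to between 980188 and 1043599 per library, close to CPM. In every library 100% of values up to 20 reads are whole multiples of 1 step within 0.1 read. The values are therefore taken as log2(CPM + 1) with a further factor per library, and reads were recovered from the steps. Libraries hold 8310777 to 10416270 reads, and 1 read is worth 0.0968 to 0.118 CPM.

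The deposited log2 values entered limma 3.58.1 (R 4.3.3) for the 13317 genes with at least 1 in at least 3 libraries, with strain as the sole term and a prior that follows the level. Two-sided p-values were adjusted by Benjamini and Hochberg's method over all genes tested. A log2 fold is the difference of BALB/c minus B6 in log2(CPM + 1), and is too small for low genes. The prior added 18.4 degrees of freedom to the residual 4, so the spread rests mainly on genes of similar level. The script was tested on simulated data. Nothing in the labels ties a library to a named animal, so p-values measure the spread between these libraries, which may in part be technical.

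Coordinates and transcripts come from GENCODE M21 on GRCm38, and alignments were made with mafft 7.526. The members and lists were chosen with earlier results of these data known. In each list the called genes with the 4 smallest p-values were named, and Hnf4a, Lrp2, Elane, Serpina1f and the members' direct neighbours whatever their values. Some items that the rule covers are not reported here. For each member above the filter, the 3 genes most like it were named as well. Adrenal markers summed to 1.84 to 7.07 CPM in BALB/c and 2.52 to 3.93 CPM in B6. Proximal S1 and S2 markers summed to 2292 to 2493 CPM in BALB/c and 2230 to 2720 CPM in B6. Of these 6 tubule markers, 3 were lower and 2 higher in every BALB/c kidney, beside 12.9% and 12.5% of all genes that passed the filter. All 6 libraries read Xist, at 188.4 to 192.9 CPM in BALB/c and 104.3 to 164.4 CPM in B6. The Y-linked genes Eif2s3y, Kdm5d and Uty had no read in any library. Ddx3y reached at most 0.774 CPM in BALB/c and 0.110 CPM in B6.

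The alternatives tried were other pseudocounts, scalings, filters and variance models, a replicate block, leaving out each library, and other word lengths and windows.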

Additional observations from a re-analysis of the deposited data

How the results depend on the processing

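The members' log2 differences kept their sign under every alternative run except Serpina1a, whose difference ran from -0.59 to 0.05 when each library was left out. Serpina1b stayed between 2.36 and 3.19 and Serpina1d between -4.14 and -3.45 over the same omissions. With a pseudocount of 5 CPM, which shrinks low genes, the log2 differences were 1.83 for Serpina1b, -2.67 for Serpina1d and -0.36 for Serpina1e. The number of genes called, 1211, became 493 without the trend in the variance prior and ran from 797 to 1138 when 1 library was left out, with 797 without BALB/c replicate 1 and 806 without B6 replicate 1. Without the trend no transcription factor and 2 of the endoplasmic reticulum genes were called. The list of other clade A serpins had 2 calls among genes that averaged 5 CPM or more, and 2 to 4 when 1 library was left out. The list of uptake receptors had 0 to 2. The causes were not tested. Words of 36 bases found in another gene came to 58.5% for Serpina1b, 60.4% for Serpina1d, 71.7% for Serpina1a and 35.8% for Serpina1c. With 75 bases they were 10.9%, 8.70%, 30.4% and 2.17% in the same order, and 2.17% for Serpina1e. With 100 bases Serpina1a had 17.1%, all in Gm8893, and the other members 0. Over the last 500 bases Serpina1c had 40.7%. Replicate numbers did not pair the libraries, since deviations of same-numbered libraries correlated at 0.0115, -0.057 and -0.0844. With the replicate number as a block, 977 genes were called and the members' folds were the same by construction. The depth limits Serpina1e most, with 12 reads over BALB/c and 58 over B6.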
